A study of Homo sapiens with 15 samples.

Results

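The cytosolic ribosomal protein genes encode the proteins of the 2 subunits of the ribosome in the cytoplasm, and their mRNAs are among the most abundant of a growing cell. They were chosen by symbol: RPL or RPS, a number and at most 1 closing A or X, together with RPLP0, RPLP1, RPLP2 and RPSA, with no pseudogene and no mitochondrial ribosomal protein. The array annotation gave 52 such genes a probe set of their own, of 19775 genes in all. These were 32 genes of the large subunit and 20 of the small subunit. RefSeq holds 77 genes that match the rule. Another 15 of them were named only on probe sets shared with other symbols and 10 on no named probe set, so that RPLP0, RPSA, RPL5 and RPS27A, among others, were not analysed here. Of the 52 genes, 51 passed the filter on dim signal. RPL36A did not pass, and its probe set lay between 4.88 and 5.15 in the extract means on the log2 scale.

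The cells were SKOV3ip1, a human epithelial ovarian cancer line, and expression was read on Affymetrix U133 Plus 2.0 arrays. The 5 conditions were folate-free medium for 7 days (the no-folate extract), and medium with folic acid at a physiological level for 7 days with the 003 antibody, the MORAb003 antibody or the control antibody 004 for the last 24 hours, or with no antibody (the folate extract). The culture description gives folic acid at 2 to 10, in a unit written nm. The arrays' titles name the folate source MTF or 5-MTF, while the culture description says folic acid. Whether 003 and MORAb003 are preparations of the same antibody is not stated. Each condition was 1 culture that gave 1 RNA extract, and 3 aliquots of it were hybridised, the third under another date in the array names than the first and second. The p-values therefore compare RNA extracts through the spread between hybridisations, and they carry no information on the spread between cultures. A lower share of an mRNA in an extract and less RNA per cell cannot be told apart on these arrays, whose scaling is not stated.

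Ribosomal proteins are made in matched amounts, since each ribosome holds nearly all of them once. Large-subunit proteins carry the RPL names and small-subunit proteins the RPS names, while RPLP1 and RPLP2 form, with RPLP0, the stalk that recruits the factors driving translation. In vertebrates the balance is known to be set largely at translation, through a run of pyrimidines that begins with a C at the first base of the mRNA (the 5′ terminal oligopyrimidine tract, TOP). Nutrient signals through mTOR act on that run, so polysome loading of these mRNAs can change while their amount does not. Arrays of total RNA see the amount alone.

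The starts of the genes on which the results turn are shown to give the run in its place. Each sequence is 30 bases of the transcribed strand from RefSeq GRCh38.p14, with 15 bases before the annotated first transcribed base and 15 from that base on. Capitals mark the run of C and T that opens the transcript where that first base is a C and at least 4 further bases are C or T.
RPL29: caccgcagcccctttCTCTTCCggttctag
RPLP1: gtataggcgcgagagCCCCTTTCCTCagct
RPS14: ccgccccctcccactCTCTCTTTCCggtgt
RPS9: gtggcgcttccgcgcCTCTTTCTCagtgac
RPLP2: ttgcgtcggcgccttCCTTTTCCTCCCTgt
RPL27A: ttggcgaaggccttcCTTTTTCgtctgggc
RPS6: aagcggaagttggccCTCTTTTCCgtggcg
RPL3: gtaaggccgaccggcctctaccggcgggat
They lie at chr3:51995881-51995910 on the minus strand (RPL29), chr15:69452803-69452832 on the plus strand (RPLP1), chr5:150449725-150449754 on the minus strand (RPS14) and chr19:54200843-54200872 on the plus strand (RPS9). The others lie at chr11:809952-809981 on the plus strand (RPLP2), chr11:8682777-8682806 on the plus strand (RPL27A), chr9:19380222-19380251 on the minus strand (RPS6) and chr22:39319609-39319638 on the minus strand (RPL3). RPL3 is the one gene of these 8 whose annotated first base opens no such run. That base is a C, but the pyrimidines after it stop short of 4. In RPL3 a run that meets the rule begins at the base before it. Of 46 of the 52 genes with a start in the RefSeq table, 34 (73.9%) open with the run at the annotated base itself, on the transcribed strand, against 5.14% of 27305 genes. Within 5 bases of the annotated start the run was found for 87% of the 46 genes and for 23.6% of all genes. Among mitochondrial ribosomal protein genes, whose products work in a separate ribosome, 5 of 67 (7.46%) opened with it. The run describes the annotated starts and was not measured in these cells.

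One array stood apart before any comparison was made. The first replicate of the 004 extract had a 90th percentile of 9.05 over its probe sets, against 9.74 and 9.75 in the other 2 arrays of that extract, and its median ribosomal protein signal was 14.24, against 14.42 and 14.40. All array medians lay between 6.53 and 6.67. The extracts also differed in the gap between 3′ and 5′ actin probe sets, which grows where cDNA or RNA is shorter. This gap was 4.09 ± 0.16 in the no-folate, 4.02 ± 0.10 in the 003, 2.42 ± 0.13 in the MORAb003, 3.46 ± 0.31 in the 004 and 3.24 ± 0.13 in the folate extract (log2, SD, n = 3 arrays each). The epithelial markers EPCAM, KRT18 and KRT19 were bright in the no-folate extract, at 13.41, 14.10 and 13.70, and all 10 epithelial markers listed passed the filter. Of 9 leukocyte markers 3 passed, CD3E at 6.95, ITGAM at 6.93 and NCAM1 at 9.01 in the no-folate extract, while PTPRC, at 6.32, did not. Of 8 fibroblast and endothelial markers 7 passed, from PDGFRB at 6.44 to COL1A1 at 9.26 in that extract, while COL3A1, at 5.65, did not.

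Ribosomal protein mRNAs gave some of the brightest signals on the arrays. RPL41, a very short large-subunit protein, averaged 15.45 over the 15 arrays, RPL37A 15.32 and RPL10A 15.01. At the dim end of the tested genes were RPLP2 at 9.01 and RPL27A at 11.11, while every other tested gene was above 13. Signals of different probe sets do not rank mRNA amounts, and the brightest probe sets sat close to the top of the scale, where differences can be compressed. The median of the 51 genes was 14.44 ± 0.03 in the no-folate, 14.40 ± 0.04 in the 003, 14.44 ± 0.03 in the MORAb003, 14.35 ± 0.10 in the 004 and 14.38 ± 0.02 in the folate extract (mean of 3 array medians ± SD). These medians lay close together, and the lowest single array was the first of the 004 extract.

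**Figure D1:**
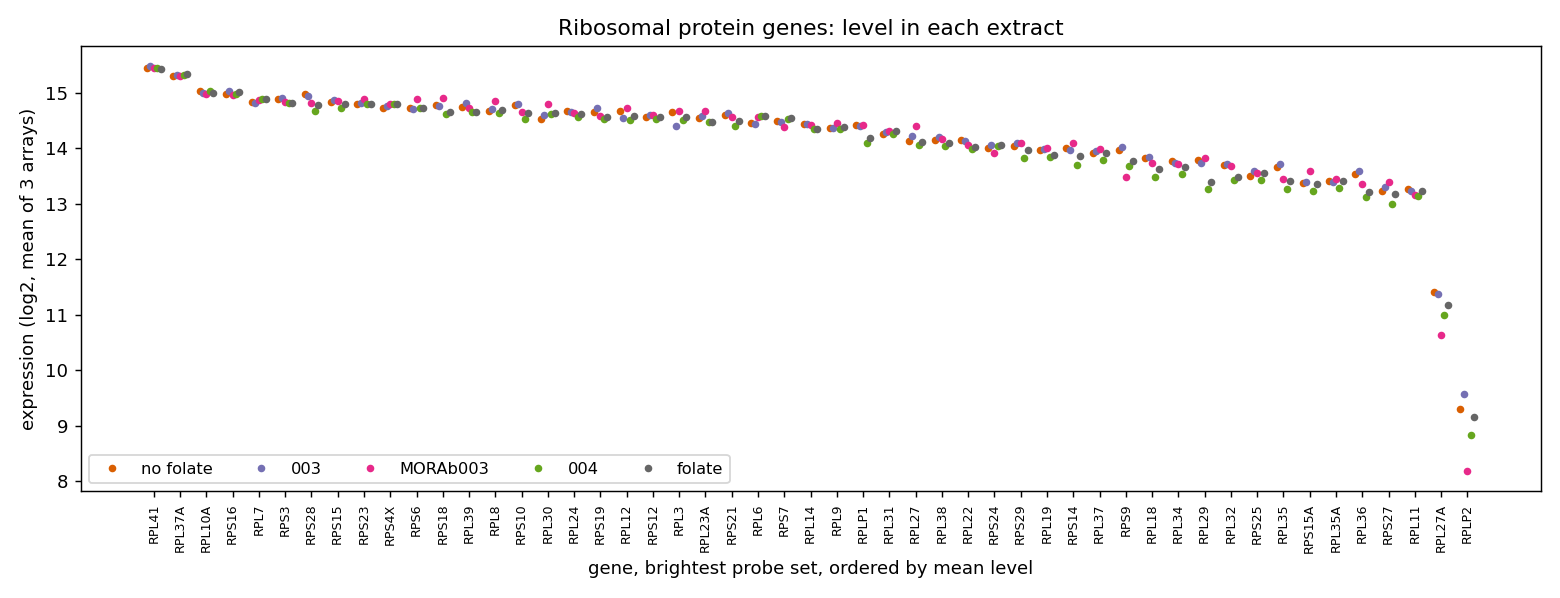
Level of each of the 51 tested ribosomal protein genes (x axis, ordered by mean level) as the mean of 3 arrays on the log2 scale (y axis), with 1 point for each of the 5 extracts. The points of a gene nearly coincide along most of the axis, and RPLP2 and RPL27A, at the dim end, spread the most.

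With each gene read on its brightest probe set, the ribosomal protein genes were steadier across the extracts than genes at large. The range of a gene's 5 extract means had a median of 0.19 log2 over the 51 genes, against 0.48 over all 14368 genes tested. The smallest range was 0.05, for RPL10A, and the largest 1.38, for RPLP2. In limma's F test among the 5 extracts, 9 of the 51 genes had an adjusted p under 0.05, against 38.1% of all genes, and 1 of them, RPLP2, also spanned at least 1.5-fold, against 28.9% of all genes. The standard error of a difference had a median of 0.087 over the 51 genes and 0.151 over all genes, so the narrow ranges came with narrower errors. The 9 were RPLP1, RPLP2, RPL27, RPL29, RPL32 and RPL36 of the large subunit and RPS9, RPS14 and RPS28 of the small subunit. Without the first 004 array, the F test counted 19 of the 51 genes at that adjusted p, against 70.5% of all genes, and 2 that also spanned 1.5-fold, against 31.8%.

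The genes moved in loose company. Over the 5 extract means, the median Pearson correlation between 2 ribosomal protein genes was 0.435 across 1275 pairs, and 70.3% of the pairs were above 0. These points share arrays and scaling. The 004 extract held the lowest mean of 35 of the 51 genes, while the 003 and MORAb003 extracts each held the highest mean of 19. These counts were not made over all genes. Genes at large were also low in the 004 against the folate extract, with a median difference of -0.13, against -0.05 for the 51. Higher in the 004 extract were 32.6% of all genes and 9.8% of the 51. Without the first 004 array, 30 of the 51 genes were higher there than in the folate extract. RPL29, RPLP1, RPS14 and RPS27 had their lowest mean in the 004 extract and their highest in the MORAb003 extract, whereas RPL36, RPL35 and RPL32 had their highest in the 003 extract.

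**Figure D2:**
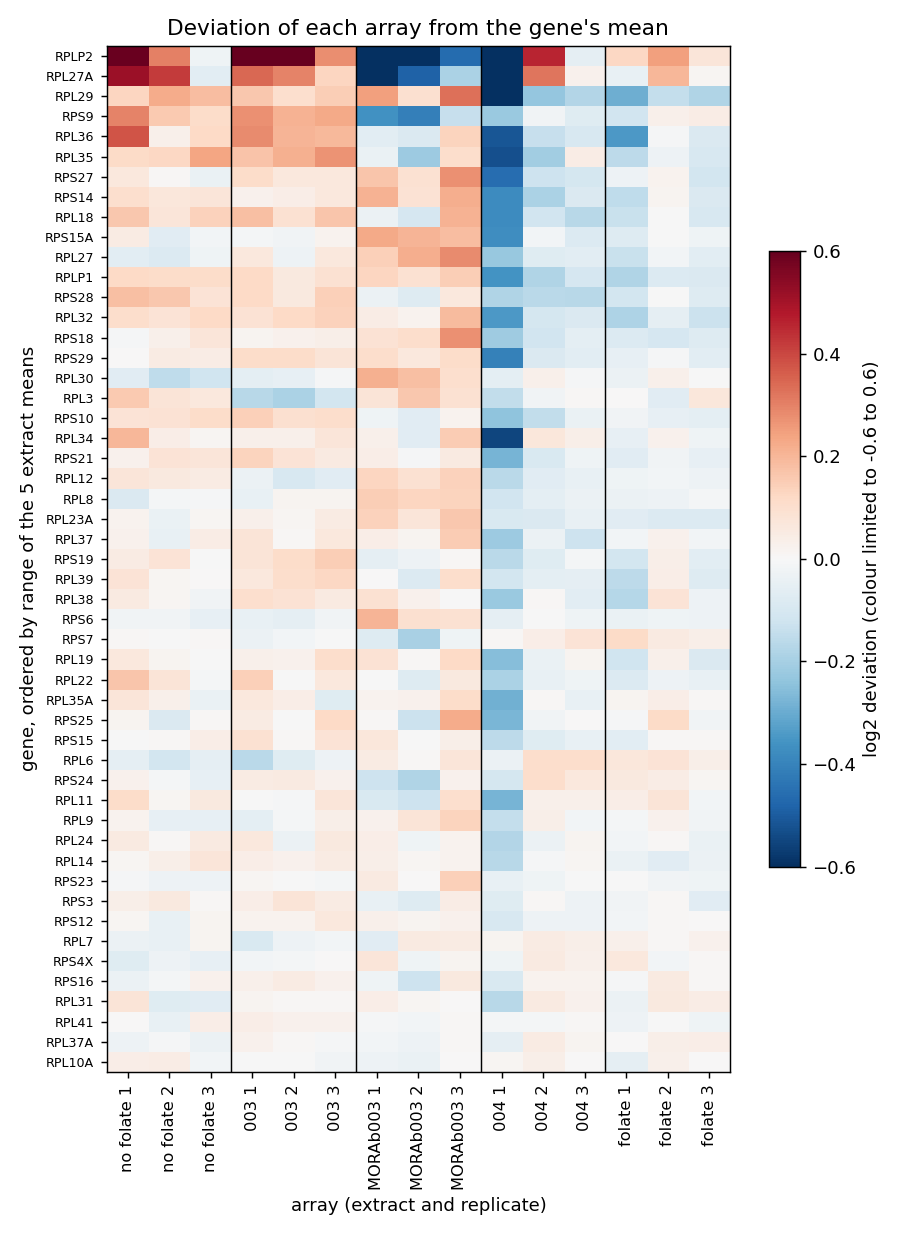
Deviation of each array from the gene's mean over 15 arrays (colour, log2, limited to -0.6 to 0.6) for the 51 tested genes (rows, ordered by the range of the 5 extract means), with 3 arrays per extract (columns). The first 004 array is low in most rows, RPL29 is high in the no-folate, 003 and MORAb003 arrays and low in the 004 and folate arrays, and RPLP2 and RPL27A are lowest in the MORAb003 arrays and the first 004 array.

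No ribosomal protein gene of the 51 differed by more than 0.39 log2 between the no-folate and the folate extract. None of the 51 genes was called between the no-folate and the folate extract at an adjusted p under 0.05 (limma, Benjamini-Hochberg over all genes) and a difference of at least 1.5-fold, against 2.71% of all genes. Without the fold minimum the count was also 0, against 4.06% of all genes, and 5 genes (9.8%) were higher and none lower at an unadjusted p under 0.05, where 8.08% of all genes were higher and 10.6% lower. The median difference was 0.06, with 36 of the 51 genes higher, against a median of 0.01 over all genes. It was 0.12 with 42 genes higher after quantile normalization and 0.03 with 31 higher with each array centred on its median. Differences ran from -0.13 for RPL6 to 0.39 for RPL29, both large-subunit proteins.

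RPL29, a small basic protein on the surface of the large subunit, differed most. It had 13.73, 13.83 and 13.79 in the no-folate arrays, against 13.31, 13.46 and 13.42 in the folate arrays. Every no-folate array was above every folate array. The difference was 0.39 (SE 0.11) with a limma adjusted p of 0.073. Without the first 004 array, which enters this comparison through the shared error estimate alone, the adjusted p was 0.000769, and 6 of the 51 genes (RPL29, RPL32, RPL35, RPL36, RPLP1 and RPS28) were higher at an adjusted p under 0.05, against 13.2% of all genes. None of the 51 was past 1.5-fold in that fit, against 6.52% of all genes. RPL36, another large-subunit protein, had 13.74, 13.39 and 13.48 in the no-folate arrays, against 13.02, 13.35 and 13.27 in the folate arrays. Its groups did not overlap either, and they were spread widely, at 13.54 ± 0.18 and 13.22 ± 0.17, with a difference of 0.32 and a limma adjusted p of 0.208. RPS28, a small-subunit protein, had 15.01, 15.00 and 14.92 in the no-folate arrays, against 14.73, 14.83 and 14.76 in the folate arrays, and differed by 0.21 with a limma adjusted p of 0.191. RPS6, a substrate of the S6 kinases, had 14.73, 14.73 and 14.70 in the no-folate arrays, against 14.71, 14.73 and 14.72 in the folate arrays, which overlapped throughout.

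Between the 003 and the 004 extract, most ribosomal protein genes had small positive differences. None of the 51 was called, against 3.47% of all genes, and 43 were higher, with a median difference of 0.15 against 0.07 over all genes. At an unadjusted p under 0.05, 15 genes (29.4%) were higher and none lower, where 18.2% of all genes were higher and 4.07% lower. RPL29 alone passed an adjusted p under 0.05 without the fold minimum, where 5.19% of all genes passed as higher. Its values were 13.77, 13.70 and 13.75 in the 003 arrays, against 13.01, 13.37 and 13.43 in the 004 arrays. The groups did not overlap, and the difference was 0.47 (SE 0.11, limma adjusted p = 0.0294). Without the first 004 array it was 0.34 with a limma adjusted p of 0.00526, the median difference of the 51 genes was 0.07, and 9 genes were higher and 1 lower at an adjusted p under 0.05, against 10.9% and 18.5% of all genes.

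Against the folate extract, the 003 extract showed no called ribosomal protein gene, with 2.02% of all genes called. The median difference was 0.08, and 37 of the 51 genes (72.5%) were higher, against a median of 0.03 and 55.6% over all genes. At an unadjusted p under 0.05, 6 genes (11.8%) were higher and none lower, where 9.39% of all genes were higher and 12% lower. In the fit without the first 004 array, which enters through the shared error estimate alone, 7 genes were higher and none lower at an adjusted p under 0.05, against 15.4% and 22.2% of all genes, and RPL29 had a limma adjusted p of 0.00178 there. RPLP2 had the largest difference, 0.41, with a limma adjusted p of 0.405, followed by RPL36 at 0.37 (adjusted p = 0.135) and RPL29 at 0.34 (adjusted p = 0.107). The largest in the other direction was -0.16 for RPL3, a core large-subunit protein near the peptidyl transferase centre, with a limma adjusted p of 0.297.

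Between the MORAb003 and the 004 extract no ribosomal protein gene was called, while 19.9% of all genes were. Without the fold minimum, 9 of the 51 genes were higher and none lower at an adjusted p under 0.05, against 23.2% of all genes higher and 11.9% lower. At an unadjusted p under 0.05, 15 genes (29.4%) were higher and 1 lower, where 28.9% of all genes were higher and 19.3% lower. The median difference was 0.13, with 41 genes higher, against 0.04 over all genes. The 9 genes were RPL27, RPL29, RPL32 and the stalk protein RPLP1 of the large subunit, and RPS14, RPS15A, RPS18, RPS27 and RPS29 of the small subunit, with differences from 0.26 for RPL32 to 0.56 for RPL29.

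RPL29 had 13.85, 13.70 and 13.94 in the MORAb003 arrays, against 13.01, 13.37 and 13.43 in the 004 arrays, a difference of 0.56 (SE 0.11, limma adjusted p = 0.00323). RPLP1 had 14.43, 14.40 and 14.45 in the MORAb003 arrays, against 13.95, 14.12 and 14.20 in the 004 arrays, a difference of 0.34 (SE 0.09, limma adjusted p = 0.0118). RPS14, which lines the platform of the small subunit, had 14.13, 14.01 and 14.14 in the MORAb003 arrays, against 13.55, 13.73 and 13.84 in the 004 arrays, a difference of 0.39 (SE 0.09, limma adjusted p = 0.00827). A second, dim probe set of RPLP1, at 6.84, differed by -0.64 between these extracts, and the mean of both by -0.15, so the direction of RPLP1 rests on its bright probe set. In all 3 genes every MORAb003 array lay above every 004 array, and the first 004 array was the lowest. Without that array the differences were 0.43 for RPL29, 0.26 for RPLP1 and 0.31 for RPS14, each at a limma adjusted p under 0.05, and the median difference of the 51 genes was 0.07. In that fit 11 genes were higher and 3 lower at an adjusted p under 0.05, against 22.5% and 22.4% of all genes. Called in either direction were 2 of the 51 genes, RPLP2 and RPL27A, both lower, and 12.4% of all genes. The share of all genes called lower was not counted in that fit.

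Against the folate extract, RPLP2 was the called gene of the MORAb003 extract, lower, while 6.58% of all genes were called and 1.81% were called lower. Its values were 8.00, 8.00 and 8.55 in the MORAb003 arrays, against 9.13, 9.25 and 9.08 in the folate arrays. The groups did not overlap, and the difference was -0.97 (SE 0.28, limma adjusted p = 0.0389). This call was lost in 13 of 27 alternative settings, each with the same direction, and limma's adjusted p ran from 6.36e-05 to 0.204. Among these were the fits without the second no-folate array, any 1 of the folate arrays, the first or second 003 array, or the first or second MORAb003 array. RPL29 was higher by 0.43 with a limma adjusted p of 0.0275, short of 1.5-fold, and was alone in passing as higher without the fold minimum, where 6.43% of all genes passed. With the first 004 array left out, 12 of the 51 genes were higher and 4 lower at an adjusted p under 0.05, against 23.3% and 20.9% of all genes. The median difference of the 51 genes was 0.06, with 39 higher, against -0.04 over all genes.

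RPS6 gave higher values in the MORAb003 extract than in any other. It had 14.95, 14.85 and 14.84 in the MORAb003 arrays, against 14.71, 14.73 and 14.72 in the folate arrays, and the groups did not overlap. The difference of 0.16 had a limma adjusted p of 0.203, and of 0.0421 without the first 004 array. A dimmer probe set of RPS6, at 13.95, differed by 0.51 between the same extracts. RPL11, which binds the 5S RNA together with RPL5, had 13.11, 13.08 and 13.30 in the MORAb003 arrays, against 13.24, 13.28 and 13.18 in the folate arrays, and these overlapped.

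The 003 and MORAb003 extracts differed from each other in 25.4% of all genes and in 2 of the 51 ribosomal protein genes, RPLP2 and RPL27A, both higher in the 003 extract, as were 7.8% of all genes. Without the fold minimum, 3 of the 51 genes were higher and 1 lower at an adjusted p under 0.05, against 22.5% and 22.2% of all genes. These counts were 5 and 7 without the first 004 array, against 37.7% and 32.1% of all genes. RPLP2 had 9.75, 9.66 and 9.29 in the 003 arrays, against 8.00, 8.00 and 8.55 in the MORAb003 arrays. The groups did not overlap, and the difference of 1.38 (SE 0.28, limma adjusted p = 0.00153) was past the threshold in all 27 alternative settings, where it ran from 0.81 to 1.71. RPL27A, a large-subunit protein, had 11.46, 11.41 and 11.24 in the 003 arrays, against 10.32, 10.63 and 10.92 in the MORAb003 arrays. These groups did not overlap either, and the difference was 0.74 (SE 0.23, limma adjusted p = 0.0168). The call was lost in 4 of 27 alternative settings, among them those without the first or second 003 array or the first MORAb003 array, and limma's adjusted p ran from 0.000387 to 0.0806.

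RPS9, a small-subunit protein near the mRNA entry channel, and RPL3 differed in opposite directions without reaching 1.5-fold. RPS9 had 14.06, 13.99 and 14.01 in the 003 arrays, against 13.42, 13.37 and 13.65 in the MORAb003 arrays. The difference was 0.54 (SE 0.10, limma adjusted p = 0.00105). RPL3 had 14.39, 14.37 and 14.45 in the 003 arrays, against 14.63, 14.72 and 14.65 in the MORAb003 arrays, a difference of -0.27 (SE 0.09, limma adjusted p = 0.0217). Neither gene's groups overlapped. The median difference of the 51 genes was 0.02, and -0.08 with each array centred on its median, where 10 of the 51 genes were higher. The direction of the whole set therefore depended on the scaling in this comparison.

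On their brightest probe sets, RPLP2, RPL27A and RPS9 were lowest in the MORAb003 extract, which also had the smallest actin 3′ to 5′ gap. Their next lowest mean was in the 004 extract. Another bright probe set of RPS9, at 13.38, was lowest in the 004 extract instead, at 13.14 against 13.19 in the MORAb003 extract. A dim one, at 7.21, was lowest in the MORAb003 extract. RPLP2 averaged 9.29 ± 0.31 in the no-folate, 9.57 ± 0.25 in the 003, 8.18 ± 0.32 in the MORAb003, 8.83 ± 0.70 in the 004 and 9.15 ± 0.09 in the folate extract. RPL27A averaged 11.40 ± 0.31 in the no-folate, 11.37 ± 0.11 in the 003, 10.62 ± 0.30 in the MORAb003, 11.00 ± 0.52 in the 004 and 11.17 ± 0.13 in the folate extract. Of the 5 extracts, the 004 arrays of both genes were spread the most, and the first of them was the lowest. The GAPDH gap ran alike, at 2.37 in the no-folate, 2.49 in the 003, 1.21 in the MORAb003, 2.05 in the 004 and 1.97 in the folate extract. The part of these end gaps in the differences of the 3 genes was not tested.

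**Figure D3:**
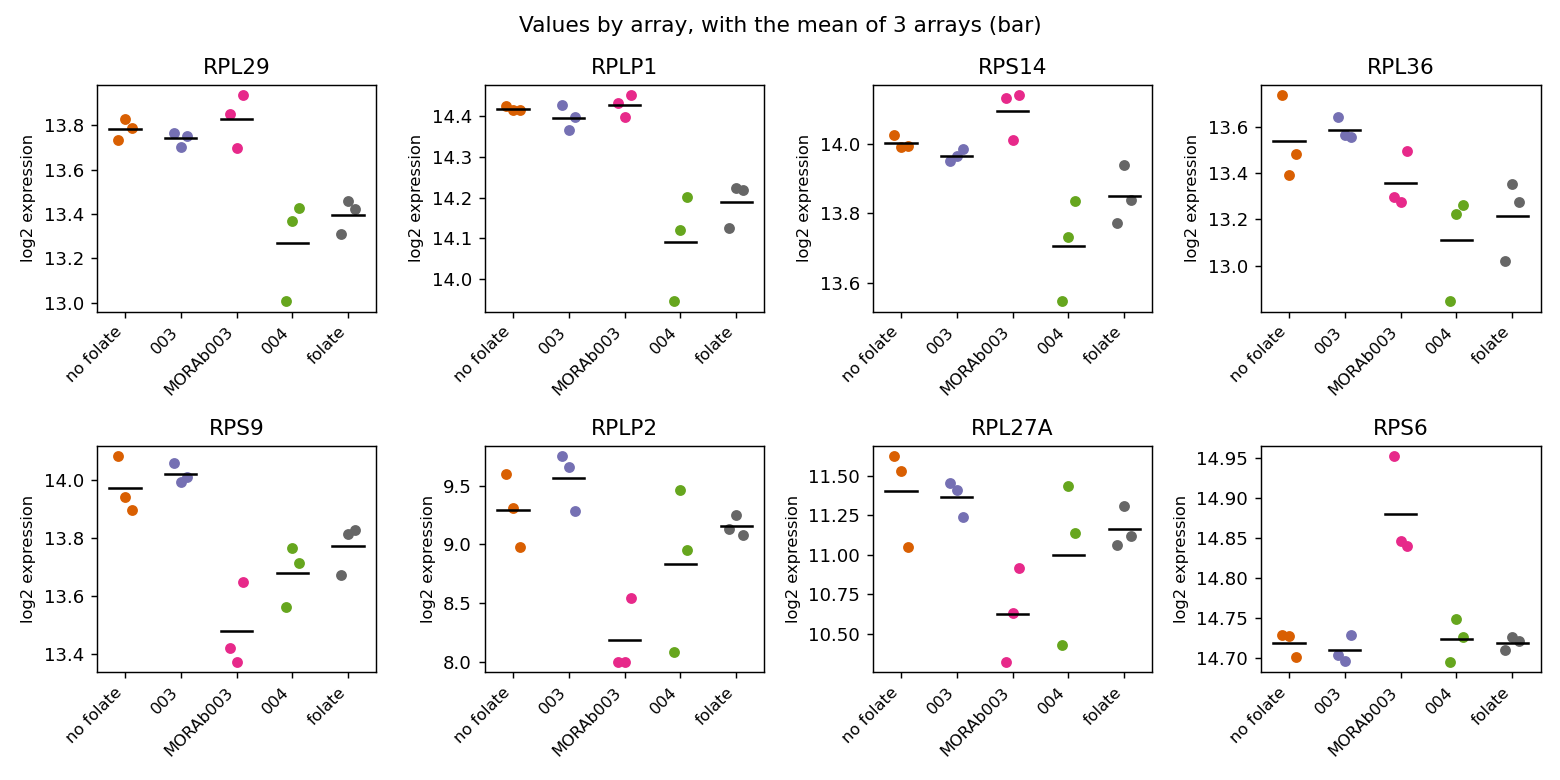
Log2 expression of 8 ribosomal protein genes in each array (points), with the mean of the 3 arrays of an extract as a bar. RPL29, RPLP1 and RPS14 are lower in the 004 and folate extracts than in the other 3, RPS9, RPLP2 and RPL27A are lowest in the MORAb003 extract, and RPS6 is highest there.

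The control antibody 004 gave no called ribosomal protein gene against the folate extract, with 0% of all genes called. At an unadjusted p under 0.05 the count for the 51 genes was also 0, where 2.03% of all genes were higher and 6.84% lower. Their median difference was -0.05, with 5 genes higher, against -0.13 over all genes. Without the first 004 array the median was 0.00 with 30 genes higher. The lower values of the 004 extract therefore lay largely in 1 array. RPLP2, with the largest difference of -0.32, had 8.08, 9.46 and 8.95 in the 004 arrays, against 9.13, 9.25 and 9.08 in the folate arrays, and the groups overlapped.

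Set together, the 6 arrays of the 003 and MORAb003 extracts lay above all 6 arrays of the 004 and folate extracts for 11 of the 51 genes, against 1.23% of all genes. This way of counting was chosen after the values were seen. The 11 were RPL14, RPL23A, RPL29, RPL32 and RPLP1 of the large subunit and RPS12, RPS14, RPS18, RPS21, RPS27 and RPS29 of the small subunit. RPS7, a small-subunit protein, lay below throughout, as did 0.181% of all genes. These counts used the brightest probe set of each gene. Another bright probe set of RPS7, at 12.89, differed by 0.05 in 003 against 004 and by -0.07 in 003 against folate. In MORAb003 it differed by -0.05 and -0.17. For RPL14 another, at 13.04, differed by -0.04 and -0.09 in 003, against 004 and folate, and by 0.08 and 0.03 in MORAb003. The dimmer probe set of RPL29, at 12.73, was higher in both antibody extracts than in both controls. Means of both antibody extracts were above both control means for 32 of the 51 genes, against 9.97% of all genes, and below for 4, against 6.08%.

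The differences were small. They ran from 0.06 for RPS12 to 0.45 for RPL29, and 0.27 for RPLP1 was the next highest. For RPL14 the lowest antibody array, at 14.407, was barely above the highest control array, at 14.404. RPL29 had a wider gap, 13.70 against 13.46. It averaged 13.78 ± 0.05 in the no-folate, 13.74 ± 0.03 in the 003, 13.83 ± 0.12 in the MORAb003, 13.27 ± 0.23 in the 004 and 13.40 ± 0.08 in the folate extract (SD, n = 3 arrays each). Without the first 004 array the same 11 genes and RPS7 were found, against 1.32% and 1.96% of all genes. Both antibody means were then above both control means for 29 of the 51 genes, against 9.43% of all genes, and below for 7, against 10.1%. The count of genes above throughout was 13 after quantile normalization, against 1.16% of all genes. It was 6 with each array centred on its median, against 1.23%, and 4 with the mean of a gene's probe sets, against 1.1%.

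For most of these genes the no-folate extract, from cells without antibody, was also above the controls, as it was for most genes at large that met the same condition. The no-folate mean was above both control means for 10 of the 11 genes, all but RPS12. For 8 of them all 3 no-folate arrays were above all 6 control arrays. Of all 177 genes that met the condition, the no-folate mean was above both control means for 168 (94.9%, against 90.9% of the 11), and all no-folate arrays were above all control arrays for 132 (74.6%, against 72.7%). The genes were chosen on the same control arrays, so these counts are a description. RPLP1 had 14.42, 14.41 and 14.41 in the no-folate arrays, 14.42, 14.36 and 14.40 in the 003 arrays and 14.43, 14.40 and 14.45 in the MORAb003 arrays, against 14.13, 14.22 and 14.22 in the folate arrays.

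With each extract counted as 1 sample, none of the 51 genes passed limma's adjusted p under 0.05 between the antibody and control cultures, against 0% of all genes. At an unadjusted p under 0.05 the counts were 0 of the 51 and 47 of all genes, with 2 residual degrees of freedom. The 003 and MORAb003 cultures were treated as 1 condition there, as were the 004 and folate cultures, which the labels do not state. Of the 51 genes, 42 (82.4%) were higher with antibody, with a median difference of 0.08, against 57.2% and 0.03 over all genes.

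Several ribosomal protein genes were read by more than 1 probe set, and in several of them the dim probe sets did not follow the bright one. The 52 genes had 111 probe sets of their own, of which 102 passed the filter. Of the 69 at a log2 level of 12 or more, a limit chosen after the values were seen, 1 differed among the extracts in the F test by at least 1.5-fold (1.45%), against 26.8% of all 987 probe sets that bright. Of the 33 dimmer ones 9 did (27.3%), near the 29.3% of all probe sets tested. The median range of the extract means was 0.18 at or above that level and 0.64 under it.

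The disagreement was largest for RPL37A, a zinc-binding large-subunit protein. Between the 003 and MORAb003 extracts its probe set at 15.32 differed by 0.02, the one at 8.76 by 1.74 and the one at 7.55 by -0.41. RPL31 had a probe set at 8.36 that differed by -1.46, while its brightest differed by -0.01. RPL37 had one at 8.35 that differed by -1.10, while its brightest differed by -0.02. Dim probe sets of these genes thus differed in both directions. RPL35A had one at 7.26 that differed by 1.04. RPS24 had a probe set at 8.09 that differed by 1.10 between the MORAb003 and 004 extracts, against -0.11 for its brightest. RPLP2 is represented by a probe set in this dim range, and its other one, at 5.04, did not pass the filter. RPL27A had 1 probe set, at 11.11, which was also under the limit of 12. Dim probe sets of RPS16, RPS19 and RPS28 stayed closer to the bright one. The largest disagreement in any comparison was 0.19 for RPS16, whose dimmest was at 7.80, 0.24 for RPS19, at 7.48, and 0.29 for RPS28, at 7.37. The largest disagreement was wider for RPLP1, at 0.97, RPL22, at 0.91, RPS21, at 0.88, and further genes down to RPL38, at 0.47.

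Both probe sets of RPL29 showed the same pattern. The dimmer one, at 12.73, differed by 0.46 between the no-folate and folate extracts, 0.66 between 003 and 004, 0.46 between 003 and folate, 0.75 between MORAb003 and 004 and 0.55 between MORAb003 and folate. In the fit over all probe sets it passed the rule for a call, 1.5-fold included, in 003 against 004 (limma adjusted p = 0.0235) and in MORAb003 against 004 (limma adjusted p = 0.00278), which the brighter one did not. Both are of the class whose probes may also match other transcripts, as were 17 of the 52 probe sets that represent a gene. Ribosomal protein genes have many processed pseudogenes of near-identical sequence, and signal from gene and copy cannot be told apart here.

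**Figure D4:**
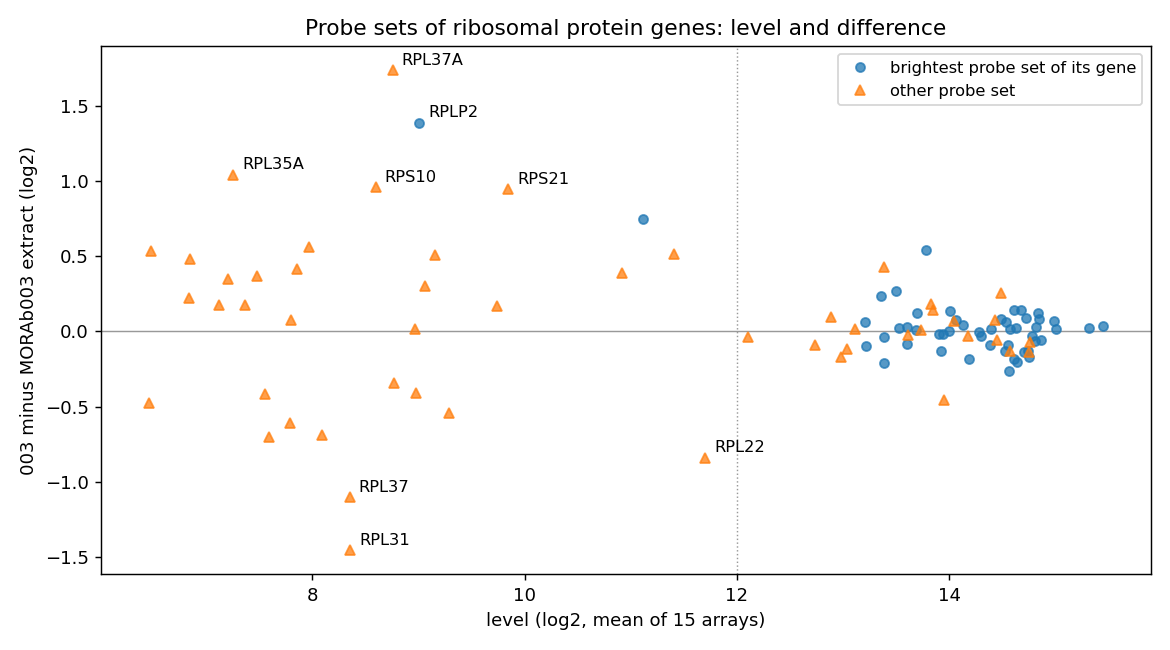
Difference between the 003 and MORAb003 extracts (y axis, log2) against level (x axis, log2, mean of 15 arrays) for the 102 probe sets of ribosomal protein genes that passed the filter, with circles for the brightest of each gene and triangles for the others. Probe sets right of the dotted line at 12 reach at most 0.54, for RPS9, and the wide differences of RPL37A, RPLP2, RPL31 and RPL37 lie left of it.

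Of 3 ribosomal protein genes listed outside the symbol rule, 1 was tested, FAU, and it was called in no comparison. FAU, whose product carries the small-subunit protein RPS30, differed by 0.35 between the 003 and 004 extracts (limma adjusted p = 0.0395) and by 0.38 between 003 and MORAb003 (limma adjusted p = 0.00421), and stayed under 1.5-fold. None of 7 tested paralogues with other symbols, RPL22L1 and RPS27L among them, was called in any of the 7 comparisons. RPL22L1 differed by -0.24 between the 003 and MORAb003 extracts (limma adjusted p = 0.0439).

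Calls among mitochondrial ribosomal proteins varied by comparison. Of 75 tested, 9 (12%) were higher and none lower in the 003 against the 004 extract, where 3.07% of all genes were called higher and 0.397% lower. In 003 against folate 3 (4%) were higher, against 0.432% of all genes, and none lower, against 1.59%. In 003 against MORAb003 16 (21.3%) were higher and 3 (4%) lower, against 7.8% and 17.6% of all genes. In MORAb003 against 004 4 (5.33%) were higher and 1 (1.33%) lower, against 17.6% and 2.32%. In MORAb003 against folate none was higher and 1 lower, against 4.77% and 1.81%, and in no folate against folate 1 was higher and 2 lower, against 0.905% and 1.8%. MRPL54 was among the higher ones, by 0.89 between 003 and 004 (limma adjusted p = 0.00638) and by 0.66 between the extracts without and with folate (limma adjusted p = 0.0111). MRPS34 differed by -0.73 between the MORAb003 and folate extracts (limma adjusted p = 0.0038). The difference in calls between the 2 sets of genes was not tested.

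Of 27 ribosome biogenesis genes tested, 8 (29.6%) were called higher and none lower in the 003 against the MORAb003 extract, where 7.8% of all genes were called higher and 17.6% lower. RRP9, a protein of the U3 snoRNP that processes ribosomal RNA, was higher by 0.63 there (limma adjusted p = 0.00147), by 0.71 against 004 and by 0.64 against folate. In 003 against 004 3 of the 27 (11.1%) were called higher, against 3.07% of all genes, and in 003 against folate 1 (3.7%), against 0.432%. In MORAb003 against 004 1 (3.7%) was higher, against 17.6%, and in MORAb003 against folate 1 was lower, against 1.81%. Of 25 initiation factors, 6 (24%) were called higher and 1 (4%) lower in 003 against MORAb003. In 003 against 004 2 (8%) were higher, in MORAb003 against 004 1 (4%) was higher, and in MORAb003 against folate 1 was lower. Of 14 other mRNAs known to open with the TOP run, 2 (14.3%) were called between MORAb003 and 004, both higher, against 17.6% of all genes. In 003 against MORAb003 2 of the 14 were called lower, against 17.6% of all genes. In MORAb003 against folate 1 was called higher, against 4.77%, and none was called between no folate and folate. By sign alone, 1 of the 14 was higher in 003 against folate, against 72.5% of the 51 genes and 55.6% of all genes. In 003 against MORAb003 2 of the 14 were higher, against 56.9% and 57.5%. In MORAb003 against 004 9 of the 14 were higher, against 80.4% and 52.6%. In MORAb003 against folate 9 were also higher, against 76.5% and 44.4%. Of 14 regulators tested, 1 (7.14%) was called higher and 1 lower without folate, against 0.905% and 1.8% of all genes. In MORAb003 against 004 3 (21.4%) were called higher and 1 lower, against 17.6% and 2.32%. In MORAb003 against folate 1 was called higher and 1 lower, against 4.77% and 1.81%. In 003 against MORAb003 3 (21.4%) were called higher and 2 (14.3%) lower, against 7.8% and 17.6%. MYC, a transcription factor with many ribosome biogenesis genes among its known targets, differed by -0.62 between the no-folate and folate extracts (limma adjusted p = 0.0392) and by 0.79 between MORAb003 and folate (limma adjusted p = 0.00621). EIF4EBP1, a repressor of cap-dependent translation and an mTOR substrate, rose by 0.78 without folate (limma adjusted p = 0.00908). No cytosolic ribosomal protein gene was called in the no-folate comparison beside these.

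Genes outside the 52 were ranked by how closely their arrays followed the mean of the ribosomal protein genes, which were themselves left out of the ranking. Over 15 arrays the Pearson correlation was highest, at 0.96, for POLD2, CIAO2B, PPP1R35, GEMIN7 and NFATC2. Without the first 004 array, over 14 arrays, the 5 highest were PPP1R35 at 0.91, POLD2 at 0.91, FLAD1 at 0.90, POLR2E at 0.89 and MMP15 at 0.88. These points share extracts and scaling, and POLD2 and PPP1R35 are the genes in both lists.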

How the data were processed

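Per the labels' protocols, Trizol-extracted total RNA was turned into biotinylated cRNA for Affymetrix U133 Plus 2.0 arrays. The deposited table holds log2 expression for each probe set, and how the authors summarised and normalized them is not given in the sources used here. They were used as deposited. Control probe sets and those with several or no gene symbols were left out, and symbols were updated through the Entrez identifier. Of several probe sets of a gene, the brightest over 15 arrays was used, and the gene was tested if 1 extract mean reached log2 6.60, the median of all probe sets, which left 14368 genes. limma 3.58.1 in R 4.3.3 fitted 5 group means with 10 residual degrees of freedom. Benjamini-Hochberg adjustment ran over all genes, and a call needed an adjusted p under 0.05 and 1.5-fold. The procedure was tested on simulated data. The ribosomal protein genes, the other lists and the tests were chosen with earlier results of these data known. Genes were named by size of difference among those called, or as the largest uncalled; by brightness; by known role; and by disagreement between probe sets. RPS9, RPS14, RPS28, RPL35 and others under 1.5-fold, and the 11 genes of the antibody count, were chosen after their values were seen. The number of arrays limits the precision. Replicate numbers did not pair arrays: deviations of same-numbered arrays from their group means had median correlations of 0.01, -0.13 and -0.13.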

Additional observations from a re-analysis of the deposited data

How the results depend on the processing

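Calls without the fold minimum came to 1 for 003 against 004, 9 for MORAb003 against 004, 2 for MORAb003 against folate, 4 for 003 against MORAb003 and 9 in the F test. Unless another minimum is named, the counts of calls that follow keep the 1.5-fold minimum, where the values as reported were 0 for MORAb003 against 004, 1 for MORAb003 against folate, 2 for 003 against MORAb003 and 1 in the F test. Shares of all genes called were not counted under the settings that follow, apart from the fit without the first 004 array. The counts of calls therefore show how far they moved and do not set these genes apart from others. Quantile normalization gave 2, 2 and 3 for MORAb003 against 004, MORAb003 against folate and the F test. It gave 13 for the antibody count, against 1.16% of all genes. Centring each array gave 1, 0 and 2, and 6 for the antibody count, against 1.23% of all genes. The mean of all probe sets gave 3, 0 and 3, and 4 for the antibody count, against 1.1% of all genes. There RPLP1 in MORAb003 against 004 turned to -0.15, and to -0.64 with its plain probe set at a level of 6.84. Plain probe sets, of which 25 genes had one tested, gave 6 for MORAb003 against 004 and 4 in the F test. A 2-fold minimum gave 0 for MORAb003 against folate and 1 for 003 against MORAb003. The fit with a replicate block gave 0 for MORAb003 against folate and moved no other count of calls by over 1.5 times. Arrays of the earlier date in the array names, 2 per extract, gave 1, 0 and 0 for MORAb003 against 004, MORAb003 against folate and the F test. RPLP2 then differed by 1.71 between 003 and MORAb003 (limma adjusted p = 0.0148). Leaving out 1 array gave ranges of 0 to 0 for no folate against folate, 003 against folate and 004 against folate, 0 to 1 for 003 against 004, 0 to 2 for MORAb003 against 004, 0 to 1 for MORAb003 against folate, 1 to 3 for 003 against MORAb003, 0 to 3 in the F test and 11 to 14 for the antibody count. Calls for MORAb003 against 004 appeared without any 1 of the 3 arrays of 004 or the second of MORAb003, and the call for 003 against 004 appeared without the second of 004. The F test gave 0 without the first MORAb003 array. The antibody count of 11 to 14 stood against 1.32% to 1.95% of all genes. The median of all genes for 004 against folate was -0.13 as deposited and 0.00 after quantile normalization, and for MORAb003 against 004 it was 0.04 and -0.10. Relative to it, the median of the ribosomal protein genes was 0.08 and -0.01 for the first comparison and 0.10 and 0.15 for the second. Except where a count above follows from its construction, the cause was not tested. Differences under about 0.2 log2 are near the error of 3 hybridisations.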
